A study of Mus musculus with 12 samples.

Results

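Within genes that carried m6A in both cell types, 819 sites were called in every library of the neural stem cell-like cells and in no library of the spermatogonial stem cells. N6-methyladenosine (m6A) is a methylated base of messenger RNA, and the libraries were made by pulling RNA fragments down with an antibody to it. The cells were mouse spermatogonial stem cells (SSCs), germline cells of the testis that renew themselves, and the induced neural stem cell-like cells (iNSCs) derived from them. Peaks of the 6 m6A immunoprecipitation libraries, 3 per cell type, were merged into 1 region wherever they shared at least 1 base and the strand. The sites were selected on these peak calls: a merged region was kept when all 3 iNSC lists and no SSC list held a peak in it, and when it lay in 1 protein-coding gene that had a peak in each of the 6 lists. Such genes are called commonly methylated here. This left 819 iNSC-only sites in 693 genes, out of 48292 merged regions in the series and 23306 in the 3943 commonly methylated genes. The sites were 3.51% of those regions, and their genes were 17.6% of the commonly methylated genes. Because presence and absence of peaks chose the sites, these shares are a description and were not tested.

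The SSCs had been grown on mitotically inactivated STO fibroblasts, a feeder layer, in medium with LIF, EGF, bFGF and GDNF. For the iNSCs, retinoic acid at 1 µM for 24 h was followed by a neural medium with bFGF at 20 ng/mL and SB431542 at 10 µM, which blocks the kinases of TGF-β receptors. The labels number 3 replicates per cell type but name no separate cultures, and each p-value refers to the spread among these libraries, which may be technical. The labels name no genotype or drug that both cell types shared. Titles gave the groups, since for each of the 12 samples the labelled cell type was the other of the 2, and 6 input libraries were not analysed here.

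The mark is written onto new transcripts by a methyltransferase complex that holds METTL3, METTL14 and the adaptor WTAP, and the YTHDF proteins bind it and affect the translation and decay of the message. In mammals it lies mostly near stop codons, in the last exon and in long internal exons, and its sequence context has the core GGAC, in which the A is methylated. A peak needs both a transcript that holds the segment and methylation on it. A site missing from the SSC lists may therefore lack the mark, the RNA segment or enough reads, and these cannot be told apart from peak lists, nor can fewer cells with the site and less of it per cell.

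The bases that could be read under the sites were those at the transcript starts of the RefSeq promoter table (GRCm38.p6), some of which lie inside the gene span. For 30 sites, the peaks of all 3 iNSC lists covered the first 50 transcribed bases of a gene in that table, and 8 of these held GGAC on the gene's strand (26.7%). The same 50 bases held GGAC in 22.9% of its 17491 protein-coding genes and in 23.6% of the 3199 commonly methylated genes among them, so the share lay near the background. The reverse complement GTCC was present in 5 of the 30 (16.7%), against 21.4% of all genes in the table. The 8 windows of 30 bases are shown because they are the printable bases of these sites that hold the core motif, given in capitals, and they run 5′ to 3′ on the gene's strand. Jdp2 held the motif 2 times, and the window nearer the start is shown.
Jdp2 at chr12:85599416-85599445 (+): gcgggagGGACactcggcggccgcgacggg
Shoc2 at chr19:53944876-53944905 (+): GGACgaggaggaggaaggaggtgagcaggg
Gse1 at chr8:120488866-120488895 (+): tgcccgggcgctGGACggaaaggcagcctt
Xbp1 at chr11:5520661-5520690 (+): tcggtctggaaatctggcctgagaGGACag
Nfil3 at chr13:52980992-52981021 (-): ccacggcgcccgcGGACccggcgcgcccgc
Rara at chr11:98937738-98937767 (+): cccgcgcccctgagctgcggccccccGGAC
Tenm4 at chr7:96171245-96171274 (+): gagccccgaatctGGACtcctccacttgac
Trim45 at chr3:100922497-100922526 (+): tgggagagcccgaGGACccactacctcatc

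Several of these genes encode transcription regulators, and apart from Tenm4 they are named because their window held the motif, after the values were seen. The strength of a peak is given as its percentile within its own list, from the score the authors deposited, where 100 is the strongest. Jdp2, which encodes a repressor of the AP-1 family, had percentiles of 78.9, 72.3 and 91.9 in iNSC replicates 1, 2 and 3. Xbp1, a transcription factor of the unfolded protein response, had 54.7, 54.3 and 44.3. The site of Rara, which encodes retinoic acid receptor alpha, ranked from 27.5 to 67.9 and began 9896 bases inside the gene span. The Gse1 site began 259946 bases inside it and the Jdp2 site 760, whereas the Xbp1 site reached the start of the span. The Tenm4 site was weak in each list, at 3.87, 23.2 and 8.42. A motif match in such a short window is a description of the bases and does not place the methylated adenosine.

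Most regions of commonly methylated genes had other patterns of presence. Of the merged regions in commonly methylated genes, 4782 had a peak in all 6 lists, and 944 were the mirror image of the sites, with a peak in all 3 SSC lists and no iNSC list (4.05%). Just outside the rule, 1126 regions had a peak in 3 iNSC lists and 1 SSC list, and 529 had a peak in 2 iNSC lists and no SSC list. The strength of a region is taken as the lowest of its iNSC percentiles. Its median was 40.4 in the first of these classes and 13.2 in the second, against 33.1 for the sites. The median merged width was 543.5 bases, 178 bases and 400 bases in the same order. The number of sites grew to 1392 (in 1099 genes) without SSC replicate 1 and to 1286 (in 1043 genes) without SSC replicate 3. It fell to 328 in 289 genes when only the better-scoring 50% of each list was used, and was 1824 in 1436 genes with 2 of 3 lists required.

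**Figure D1:**
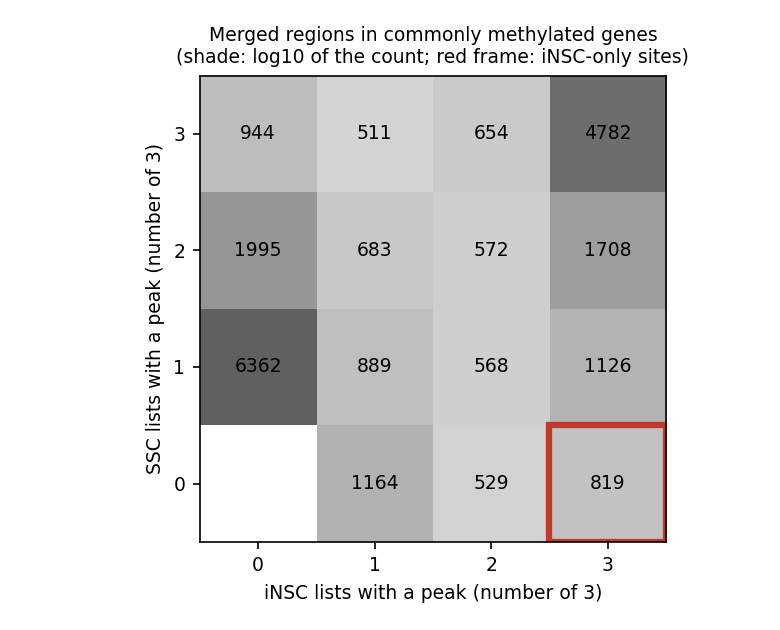
Number of merged regions in commonly methylated genes by how many SSC lists (one axis) and how many iNSC lists (the other axis) held a peak. The iNSC-only sites are the cell with 3 iNSC and 0 SSC lists (819 regions), beside 944 regions in the mirror cell and 4782 with a peak in all 6 lists.

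Most genes had 1 iNSC-only site beside sites that both cell types shared. Of the 693 genes, 588 held 1 site, 87 held 2, 15 held 3 and 3 held 4. A region called in all 6 lists lay in 428 of the genes (61.8%), against 70.5% of the commonly methylated genes. Both an iNSC-only and an SSC-only site lay in 144 genes, which is 20.8% of the genes with an iNSC-only site and 20.5% of the genes with an SSC-only site. In 54 of the 693 genes, no region at all held peaks of both cell types. Smad3, Ifnar1, E2f6, Pikfyve and Mcm10 were among these 54. Commonly methylated genes without such a shared region numbered 57 in all, and the rule makes this overlap likely by construction.

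Genes with many called regions more often held a site, which the rule favours. A gene with a site needs an SSC peak in another region, and the site itself counts among its regions. The shares below are therefore a description. The share of genes with a site was 2.25% among the 755 genes with 1 or 2 merged regions and 15.6% among the 1528 genes with 3 to 5. It was 24.0% among the 1047 genes with 6 to 9 regions and 30.3% among the 613 genes with 10 or more. Genes with a site had a median of 7 regions and a median span of 62615 bases, against 4 regions and 33501 bases in the other commonly methylated genes. For this reason gene groups are read by their share of regions as well as by their number of genes.

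The sites were most frequent at gene ends. Positions are those of the midpoint along the gene span, from the transcribed start to the end, without exon models. The last 10% of the span held 281 of the 819 sites (34.3%), the first 10% held 84 (10.3%), and each step of 10% between them held 32 to 94. SSC-only sites were spread more evenly, with 10.5% of 944 in the last 10% and 12.5% in the first. Regions in all 6 lists had 23.2% in the last 10% and 13.4% in the first. In bases, 146 sites (17.8%) had their midpoint in the last 2000 bases of the span and 43 (5.25%) in the first 500 bases.

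**Figure D2:**
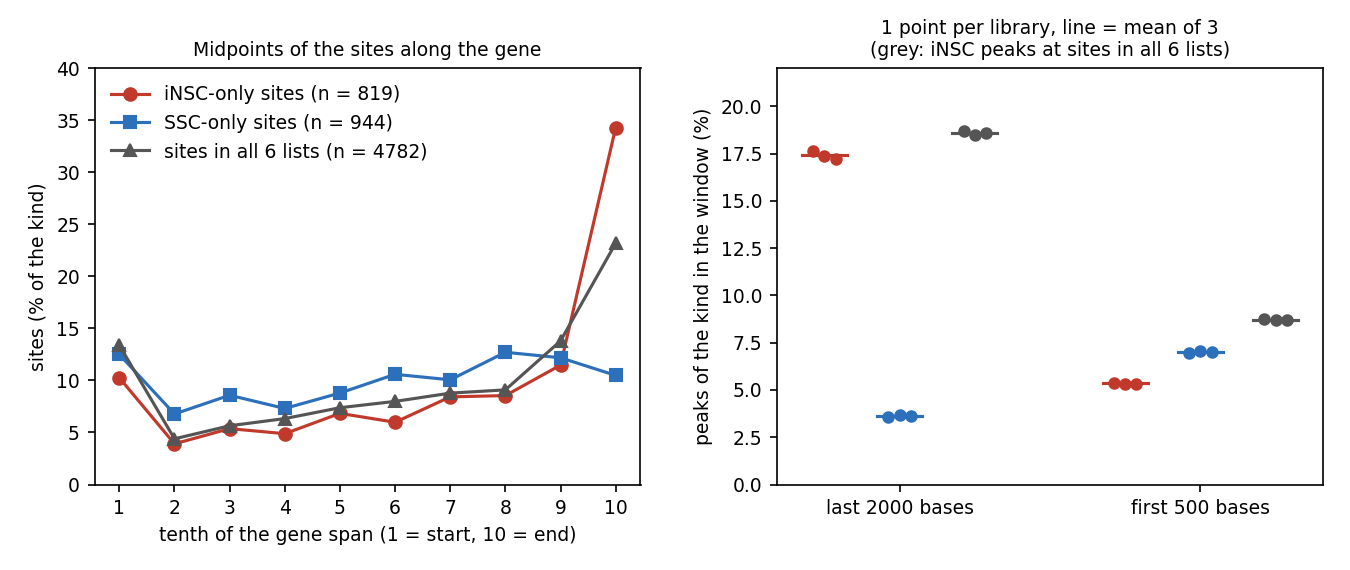
Left, share of sites (%) by position along the gene span in steps of 10%, for iNSC-only sites, SSC-only sites and regions in all 6 lists, where the last step holds 34.3%, 10.5% and 23.2%. Right, share of peaks (%) in the last 2000 and first 500 bases, with 1 point per library and a line at the mean of 3; the iNSC-only libraries lie at 17.4% and the SSC-only libraries at 3.62% on average in the last 2000 bases.

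Counted per library, the last 2000 bases held 17.4% ± 0.209 (SD, n = 3) of the iNSC-only peaks and 3.62% ± 0.0656 (n = 3) of the SSC-only peaks. The difference was 13.8 percentage points. By the rule, the same sites enter from each library of a group, so the spread shows only how peak edges varied, and a test over libraries would be fixed by the selection. These differences between kinds of site, here and at gene starts, are therefore given without a test. Of all peaks in commonly methylated genes, 16.9% ± 0.892 in iNSCs and 12.7% ± 0.969 in SSCs lay in this window, a difference of 4.25 points in the same direction (exact two-sided permutation p = 0.1, the smallest that 3 against 3 libraries allow, adjusted 0.2 over 6 tests). Regions in all 6 lists had 18.6% ± 0.131 of their iNSC peaks there, 1.17 points more than the iNSC-only sites. That small difference turned to 1.96 points in favour of the iNSC-only sites without SSC replicate 1, to 0.106 points with 2 of 3 lists required, and to 11.2 points when the last 10% of the span replaced the last 2000 bases.

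At gene starts the window was 500 bases, shorter than at gene ends, so the shares in these windows do not compare the density of sites. By steps of 10% of the span, the first held 84 of the iNSC-only sites, the second 32 and the last 281. The first 500 bases held 5.34% ± 0.0075 of the iNSC-only peaks, 6.997% ± 0.0720 of the SSC-only peaks and 8.71% ± 0.0475 of the iNSC peaks of regions in all 6 lists. The difference from SSC-only sites was -1.65 points, and it turned to 2.83 points without SSC replicate 3 and 1.66 points without iNSC replicate 2. The difference from regions in all 6 lists was -3.37 points, and 0.278 points without SSC replicate 3. Over all peaks of commonly methylated genes, the first 500 bases held 9.09% ± 1.69 in iNSCs and 8.57% ± 1.85 in SSCs (exact permutation p = 0.7, adjusted 0.7).

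Peak width moved with position. The median peak width was 390 ± 9.36 bases (SD, n = 3) for iNSC-only sites and 142 ± 1 for SSC-only sites. It was 349 ± 2.52 for the iNSC peaks of regions in all 6 lists. Over all listed peaks the median was 399 ± 32.6 bases in iNSCs and 200 ± 6.25 in SSCs. The width of the iNSC-only peaks was thus near that of iNSC peaks in general. Peaks of 1000 bases or more made up 21.5% of the iNSC-only peaks and 1.86% of the SSC-only peaks, and peaks under 100 bases made up 9.51% and 25.3%. Among peaks under 100 bases, the last 2000 bases of the span held 2.55% ± 0.0687 of the iNSC-only and 0.272% ± 0.236 of the SSC-only peaks. Among peaks of at least 100 and under 300 bases, the last 2000 bases held 1.70% ± 0.333 of the iNSC-only and 1.62% ± 0.270 of the SSC-only peaks. From 300 bases to under 1000 the shares were 22.2% ± 1.55 and 16.8% ± 1.00. At 1000 bases or more they were 42.4% ± 2.18 and 28.3% ± 4.14, where the SSC-only sites had only 16 to 20 peaks per library. Below 1000 bases, the 2 kinds of site thus differed by fewer points within each width class than over all widths, and in the widest class they differed by about as many. The part of width in the difference at gene ends was not tested.

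**Figure D3:**
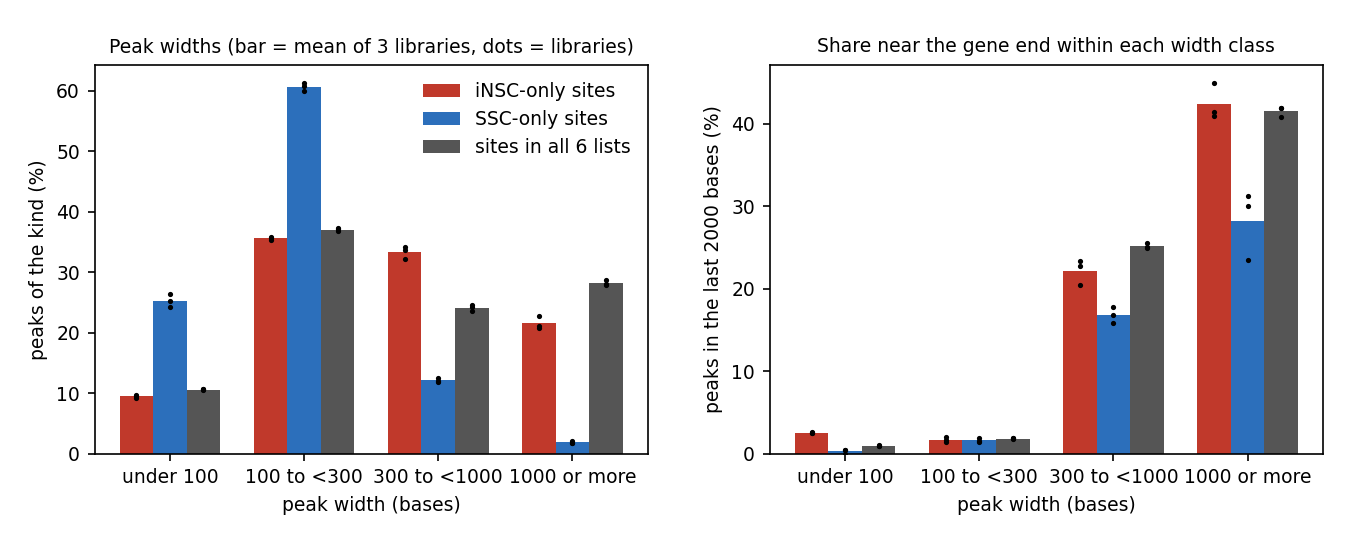
Left, share of peaks (%) in 4 classes of peak width (bases); right, share of the peaks in each class with their midpoint in the last 2000 bases of the gene span, for iNSC-only sites, SSC-only sites and the iNSC peaks of regions in all 6 lists (bars, mean of 3 libraries; dots, libraries). From 100 to under 300 bases the iNSC-only and SSC-only means are 1.70% and 1.62%, and at 1000 bases or more 42.4% and 28.3%.

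Merged sites ranged from 13 to 4720 bases, with a median of 400 and quartiles of 154 and 965. There were 193 sites over 1000 bases (23.6%) and 75 sites under 100 bases (9.16%). The 146 sites near gene ends had a median merged width of 1152.5 bases, the 43 at gene starts 163 bases and the 673 outside the last 2000 bases 244 bases. In 551 sites (67.3%) the 3 iNSC lists gave exactly the same start and end, and these had a median width of 219 bases, against 971.5 bases for the rest. Identical edges were about as frequent in SSC-only sites (69.0%) and in regions of all 6 lists (71.4%).

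Among the widest sites were those of Zfp407, Knop1, Zcchc14 and Smad3. Knop1, a nucleolar protein gene, had peaks of 3877, 3317 and 3877 bases at its gene end. At the other extreme, Syne1, which encodes the nuclear envelope protein nesprin 1, had a peak of 13 bases in each iNSC list. Celf2, a splicing regulator, and Asph, a hydroxylase, had peaks of 36 bases, and Uaca had peaks of 37 bases. The fragments in these libraries were about 200 nt long, so the narrowest entries were shorter than a fragment. Whether such an entry is part of a wider peak that the list splits was not tested.

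Few sites lay beside an SSC peak. The gap from a site to the nearest SSC peak of the same gene and strand had a median of 3778 bases, with quartiles of 1452.5 and 10117.5. It was under 100 bases for 3 sites, under 500 for 34 (4.15%) and under 1000 for 131, and over 10000 bases for 206 (25.2%). Introns count in these distances. The nearest was Cyld, a deubiquitinase that restrains NF-κB signalling, whose site of 72 bases lay 28 bases from an SSC peak, followed by Uhrf1bp1 (51 bases), Cisd2 (87), Golim4 (104) and Atad5 (105). The farthest was the gene start site of Tenm4, 472650 bases from the nearest SSC peak. Celf2 (337659 bases), Zfp407 (203635), Prune2 (162114) and Psd3 (156393) came next. Joining peaks up to 100 bases apart left 812 sites.

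The sites were weaker than regions common to both cell types. Capped scores, which were counted from 3100 and tie the strongest peaks, were reached by 7.33% ± 2.03 of the iNSC-only peaks and by 32.8% ± 3.34 of the iNSC peaks of regions in all 6 lists. Their median percentiles were 46.9 ± 5.92 and 71.7 ± 0.933 (n = 3 libraries each). SSC-only peaks were also weaker than the SSC peaks of regions in all 6 lists. Capped scores were reached by 2.18% ± 1.24 against 17.2% ± 2.63, and the median percentiles were 57.6 ± 3.47 and 81.3 ± 3.73. The lowest of an iNSC-only site's 3 percentiles was over 50 for 253 sites (30.9%) and under 10 for 133 (16.2%). The score was capped in all 3 lists for 35 sites (4.27%). Presence in all lists chose these classes and depends on strength, so no test was made.

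The strongest sites, capped in each iNSC list and ordered by total width, were in Zfp407, Zcchc14, Smad3, Rnf213, Zhx3, Ifnar1, Zbtb7b, Togaram1, Elf2, Spen, Luzp1 and Tenm4. Smad3 encodes a transcription factor that TGF-β receptors phosphorylate. Its site at chr9:63646767-63650385 was 3619 bases wide in each iNSC list and centred 1811 bases from the gene end, and it was the only Smad3 peak of those lists. The SSC lists had 1, 2 and 2 Smad3 peaks, the nearest 4300 bases away, so the 2 cell types shared no called region in this gene. Ifnar1, a subunit of the type I interferon receptor, was alike in this respect. Its iNSC peaks of 2532, 2469 and 2687 bases at chr16:91505055-91507741 were the only ones, and the nearest of its 1, 1 and 2 SSC peaks lay 710 bases away.

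Zbtb7b, which encodes a zinc finger factor of T cell lineage choice, had a site of 2351 bases in each iNSC list, 349 bases from an SSC peak. Zcchc14, a zinc finger protein gene, had peaks of 3629, 3600 and 3629 bases at its end (chr8:121598703-121602331). The Zhx3 site, in a gene of the zinc finger and homeobox family, had peaks of 2795, 2508 and 3205 bases and ran past the annotated end of the gene. These 3 sites lay at gene ends, as did that of Smad3. In contrast, the sites of Rnf213 and Spen lay well inside the span, and that of Togaram1 began 166 bases from the gene start. Rnf213, a giant ubiquitin ligase gene, had a site of 3603 bases in each iNSC list 53.4% of the way along the gene. Spen, a corepressor that acts in Notch signalling and X inactivation, had peaks of 1956, 1956 and 1733 bases 24.3% of the way along.

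**Figure D4:**
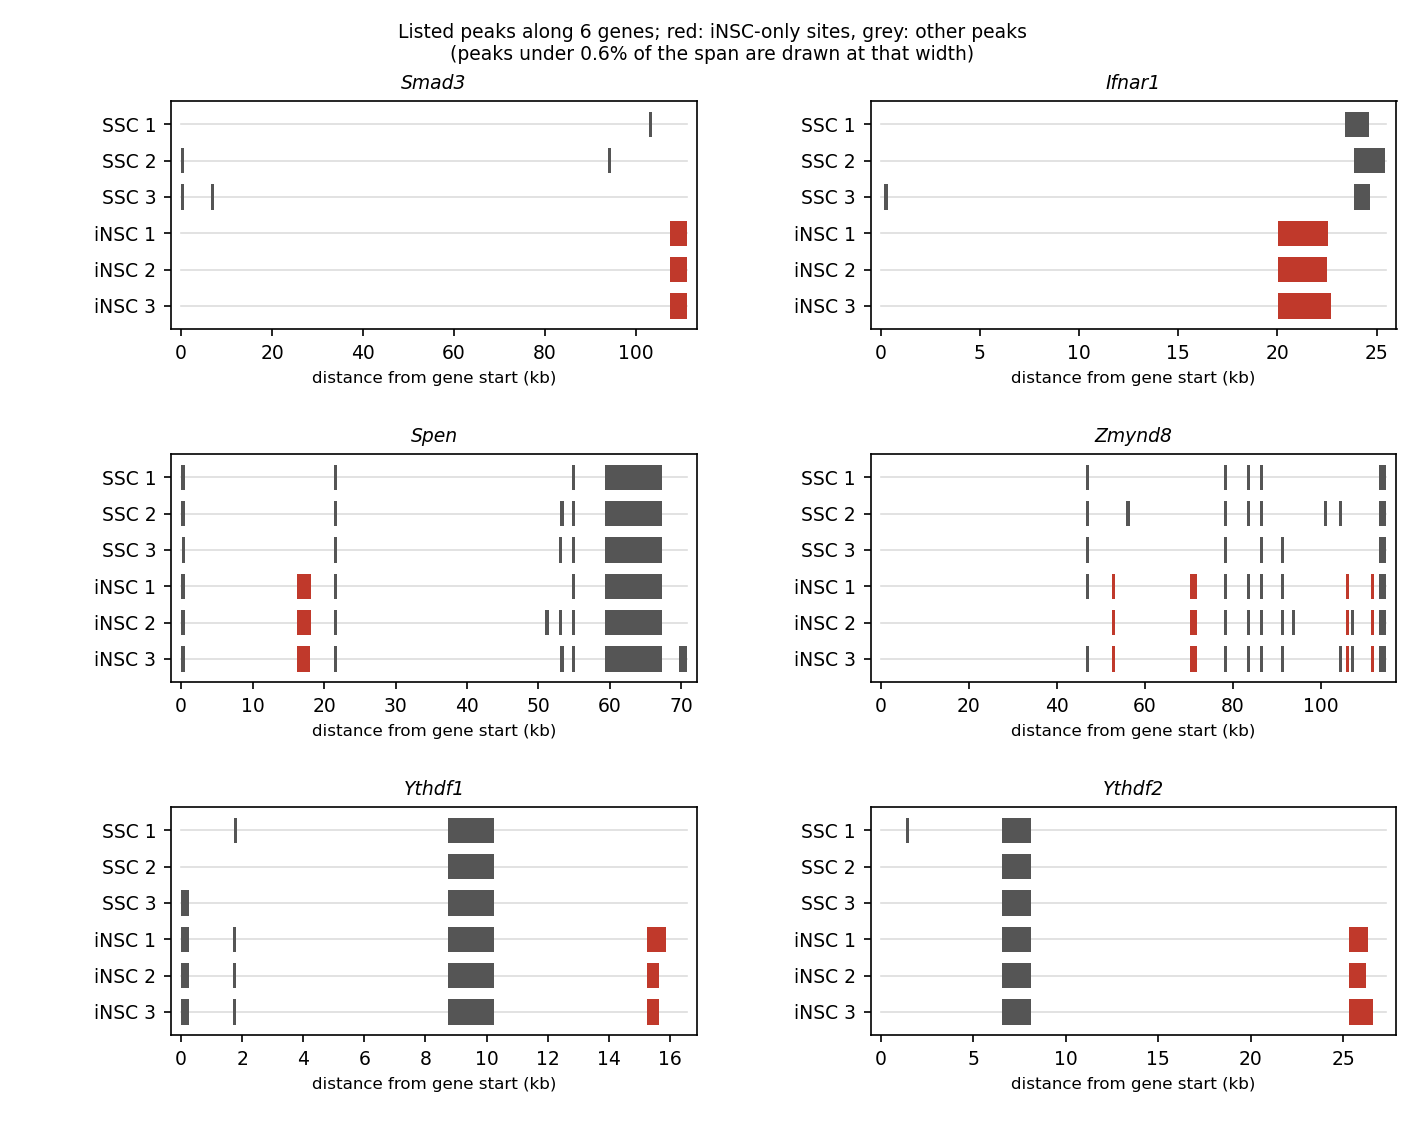
Listed peaks of Smad3, Ifnar1, Spen, Zmynd8, Ythdf1 and Ythdf2 by distance from the gene start (kb), 1 row per library, with iNSC-only sites in red and other peaks in grey; very narrow peaks are drawn wider than they are. Smad3 and Ifnar1 show 1 iNSC peak in each iNSC list, apart from the SSC peaks, and Zmynd8 shows 4 iNSC-only sites.

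The genes with the most sites mostly carried more peaks in the iNSC lists than in the SSC lists. Ordered by number of sites, then by the strength of the best site and, where scores were capped, by its width, the first 8 genes were Tenm4, Zmynd8 and Sh3kbp1 with 4 each, and Chst15, Col6a3, Emilin2, Kat6a and Trps1 with 3 each. Tenm4, a teneurin that acts at cell contacts of neurons and in myelination, had 2, 1 and 4 peaks in SSCs and 10, 6 and 11 in iNSCs. Its sites ran from the gene start to 97.9% of the span, and the last was capped in each iNSC list. Zmynd8, a reader of histone acetylation, had 5, 8 and 5 peaks in SSCs and 10, 11 and 12 in iNSCs. Sh3kbp1, an adaptor of receptor endocytosis, had 4, 2 and 4 against 9, 10 and 9. The choice of genes by their number of iNSC-only sites favours more iNSC peaks. How often commonly methylated genes in general had more iNSC peaks was not counted. Ptpn13 and Myo9a, with 2 sites each and picked after their values were seen, went the other way. Ptpn13 had 16, 13 and 10 peaks in SSCs against 3, 8 and 5 in iNSCs, and Myo9a 14, 11 and 8 against 5, 7 and 7. Nexn, an actin-binding protein gene, also had 3 sites and is named after its values were seen, since all 3 were capped in each iNSC list, with widths of 222, 198 and 189 bases.

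Matrix genes were also in this set. Emilin2, an elastic fibre glycoprotein, had 2, 3 and 1 peaks in SSCs and 4, 5 and 5 in iNSCs. Its sites lay 1.20%, 51.9% and 99.2% of the way along the gene, the last with capped scores and 918 bases in each list. Col6a3, a chain of collagen VI, had 3, 5 and 5 peaks against 5, 5 and 9, so its lists overlapped. Trps1, a GATA-type repressor, had 1, 1 and 3 peaks in SSCs and 6, 8 and 7 in iNSCs. Kat6a, a histone acetyltransferase, had 6, 5 and 5 against 8, 9 and 8. Chst15, a sulfotransferase of chondroitin chains, had 1, 2 and 1 against 4 in each iNSC list, but 1 of its 3 sites lay on the strand opposite to the gene. That happened for 4 of the 661 sites whose gene has an annotated strand, the others being in Nfix, Kif7 and Zfp507.

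Among m6A machinery genes, a writer subunit and 2 cytoplasmic readers carried a site, each in the later part of the gene. Of 12 commonly methylated members, 3 had a site, Wtap, Ythdf1 and Ythdf2 (3 of 88 regions, 3.41%, near the background). Wtap, the adaptor of the methyltransferase complex, had peaks of 1165, 1526 and 1166 bases at chr17:12973949-12975474, with percentiles of 40.9, 56.6 and 13.7. Ythdf2, the reader tied to mRNA decay, had peaks of 1014, 941 and 1283 bases at chr4:132185665-132186947, with percentiles of 59.3, 60.9 and 16.8. The Ythdf2 site was centred 1391 bases from the gene end and lay 17184 bases from the nearest SSC peak. Ythdf1, the reader named in the series title, had narrower peaks of 621, 364 and 378 bases, centred 982 bases from its end and 5018 bases from the nearest SSC peak. The Ythdf1 percentiles were 33.1, 34.4 and 8.32 in iNSC replicates 1, 2 and 3. iNSC replicate 3 gave the lowest percentile for all 3 genes.

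Several signalling groups, though not all, had sites in a larger share of their regions than the 3.51% of all regions. These lists were chosen with results of the data known and are described by counts. SSC-only sites, which were 4.05% of all regions, numbered 5 in the phosphatidylinositol and mTOR list, 3 in TGF-β and BMP, 2 in Notch, 4 in NF-κB, 4 in Wnt and 1 in G1 to S genes. They numbered 19 for ubiquitin ligases, 9 for deubiquitinases, 15 for Rab, Arf and Ras regulators, 9 for solute carriers, 2 for neural stem cell genes and 0 for survival genes. For Wnt genes and solute carriers this equals the number of iNSC-only sites, and no list's excess was tested. Phosphatidylinositol and mTOR signalling had a site in 9 of 20 commonly methylated genes (9 of 140 regions, 6.43%). Mtor, the kinase of the growth pathway, had a peak of 841 bases in each iNSC list at chr4:148556845-148557685. Centred 421 bases from the gene end, it had percentiles of 65.7, 75.6 and 72.1. The iNSC lists held 1, 1 and 2 Mtor peaks and the SSC lists 4, 2 and 3, the nearest 12290 bases away. Pik3c2a and Pikfyve, which encode lipid kinases of endosomal membranes, had sites of 1129 bases and of 1155 to 1157 bases inside their spans. Pik3r1, the regulatory subunit of PI3 kinase, had a site of 181 bases, 220 bases from an SSC peak. The other 5 genes were Inpp4a, Inpp5f, Mtmr12, Pik3r4 and Pip4k2a.

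The TGF-β and BMP list had a site in 5 of 18 genes (5 of 88 regions, 5.68%). Besides Smad3 these were Smad2, which encodes the partner of SMAD3, and Ski, which encodes a repressor of both. They also included the type I receptor gene Acvr1 and the coreceptor gene Tgfbr3. Smad2 had peaks of 1151, 1059 and 952 bases with percentiles of 52.4, 67.0 and 53.9, Ski had a narrow peak with 65.8, 68.9 and 74.3, and Acvr1 a peak of 131 bases with 36.1, 56.9 and 47.0. The Notch list had a site in 4 of 11 genes (4 of 54 regions, 7.41%). The receptor gene Notch3 had a site of 148 bases in each list, the coactivator Maml2 one of 1687 bases that lay 84097 bases from an SSC peak, and Maml3 one of 279 bases, beside the Spen site above.

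For NF-κB signalling, 4 of 16 genes had a site (5 of 84 regions, 5.95%), Cyld, Ripk1, Traf6 and Nfkb1, and none of these sites was strong in all 3 lists. Ripk1, a kinase of the TNF receptor complex, had a site of 141 bases with percentiles of 29.8, 53.2 and 57.4. Traf6, a ubiquitin ligase of receptor signalling, had 2 narrow sites, of which the better ranked had percentiles of 14.1, 31.5 and 42.6. The Nfkb1 site was 178 bases wide in each list and centred 4762 bases from the gene end. Its percentiles were 25.4, 19.4 and 2.00 in iNSC replicates 1, 2 and 3. Wnt signalling had sites in Apc, Lrp5 and Lrp6, 3 of 13 genes (4 of 81 regions, 4.94%). Apc, the scaffold of the β-catenin destruction complex, had a site of 215 bases, and the coreceptor genes Lrp5 and Lrp6 had sites of 202 to 210 bases and of 198 bases.

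Cell cycle genes of the G1 to S transition had sites in 4 of 7 genes and 4 of 37 regions (10.8%). E2f3, which encodes an activator of S phase genes, had a site of 136 bases with percentiles of 29.3, 36.6 and 30.7. E2f7, an atypical repressor, had wide peaks of 1243, 1194 and 1296 bases, but its percentile in iNSC replicate 1 was 0.805, against 46.2 and 30.7 in the others. E2f6, a repressor, likewise had 10.6 in replicate 1 against 56.1 and 60.6. Rbl1, which encodes the pocket protein p107, had a site of 165 bases with percentiles from 19.1 to 32.7. With 2 of these 4 sites close to the end of the replicate 1 list, this share rests on few and weak peaks. DNA replication and repair genes were at 6 of 38 genes (6 of 287 regions, 2.09%), among them Atm, Lig3, Fancm and Mcm10. An SSC-only site lay in 14 of the 38 (20 of 287 regions), against 701 of all 3943 commonly methylated genes (17.8%). SSC-only sites were 4.05% of all regions, and the difference was not tested.

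Ubiquitin pathway genes gave the largest number of sites among the lists. Ubiquitin ligases and adaptors had a site in 17 of 85 genes (25 of 480 regions, 5.21%), and deubiquitinases in 8 of 27 (11 of 206 regions, 5.34%). Besides Rnf213, Fbxl5, an iron-sensing adaptor, was capped in each list with peaks of 923, 1026 and 961 bases. Herc1, a giant ligase gene, had peaks of 1116, 1100 and 1020 bases. Usp48, a deubiquitinase gene, had a site of 2416 bases in each list at the gene end, and Usp47 had 176 bases with percentiles of 71.6, 79.0 and 69.0. Regulators of Rab, Arf and Ras GTPases had a site in 15 of 54 genes (17 of 384 regions, 4.43%), with Dennd4c (1163 bases in each list) and the Ras exchange factor Sos2 (656 bases) the best ranked. Solute carriers had 9 of 49 (9 of 213 regions, 4.23%), led by Slc7a5, a transporter of large neutral amino acids, with 1950 bases in each list at its gene end.

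Chromatin genes held sites in many genes but not in a large share of regions. Chromatin remodellers had a site in 11 of 37 genes, with 14 of 436 regions (3.21%), and histone methyltransferases and demethylases in 9 of 35, with 10 of 299 regions (3.34%). Both shares of regions were near 3.51%. Kmt2d, an H3K4 methyltransferase, had a site of 1982 bases in each list at chr15:98849220-98851201, 689 bases from an SSC peak, with percentiles of 78.5, 91.2 and 91.9. Kdm5a, an H3K4 demethylase, had a site of 680 bases over the gene start. Ehmt1, an H3K9 methyltransferase, had peaks of 1203, 1362 and 1118 bases near its end. Chd8, a remodeller, had 2 sites, the better of 843 bases. Of 19 Mediator and nuclear receptor coregulator genes, 6 had a site (7 of 187 regions, 3.74%). Ncor1, a corepressor of nuclear receptors, had peaks of 1605, 1127 and 1369 bases centred 1566 bases from its gene end.

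RNA processing, cytoskeletal and zinc finger genes were below or near the background. The Zfp zinc finger list, with 148 commonly methylated genes, had 8 genes with a site (9 of 507 regions, 1.78%), and translation factors 2 of 31 (2 of 174 regions, 1.15%). The 148 zinc finger genes had 3.43 regions per gene. Splicing factors had 6 of 40 genes (7 of 262 regions, 2.67%) and mRNA decay genes 5 of 25 (7 of 177 regions, 3.95%), led by the nonsense-mediated decay gene Upf3b, whose site of 161 bases on the X chromosome was capped in each iNSC list. Of the other lists, the MAP kinase cascade had a site in 4 of 26 genes (4 of 139 regions, 2.88%). Kinesins, dyneins and myosins had 7 of 34 (8 of 342, 2.34%), centrosome and cilium genes 5 of 32 (7 of 378, 1.85%) and nuclear pore genes 1 of 16 (2 of 99, 2.02%), which was Nup153. Survival genes were above the background with 2 of 5 genes (3 of 29 regions, 10.3%), Birc6 and Xiap, which encode inhibitors of apoptosis. The Birc6 site was capped and 1398 bases wide in each iNSC list, and Xiap had peaks of 1343, 1081 and 1105 bases. No site was found in 8 DNA methylation enzyme genes, 6 Hox genes, 3 ribosomal protein genes and 2 germ cell genes that were commonly methylated. Over the 12 other settings, the share of regions stayed above the share of all regions in 12 for the ubiquitin ligase, TGF-β and BMP, G1 to S, axon guidance and solute carrier lists. It did so in 11 for phosphatidylinositol and mTOR, Notch and deubiquitinase genes, in 10 for the NF-κB, Wnt, neural stem cell, survival and Rab, Arf and Ras lists, and in 0 for the Zfp, translation and splicing lists. In the better-scoring 50% of peaks, 0 sites were left among 15 regions of phosphatidylinositol and mTOR genes, 21 of NF-κB, 17 of neural stem cell, 48 of m6A machinery and 1 of survival genes. The shares there were also under the 3.63% of all regions for Wnt genes (1 of 38) and deubiquitinases (2 of 93). Rab, Arf and Ras regulators (4 of 139) were under it too. Of the lists above in all 12 settings, G1 to S genes had 1 of 2 regions there and axon guidance genes 2 of 12. TGF-β and BMP genes had 2 of 25, solute carriers 3 of 62 and ubiquitin ligases 11 of 154. Leaving out 1 library, the other overlaps and the 2 of 3 rule kept 99.1% to 100% of the 819 sites, so the settings are not independent.

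**Figure D5:**
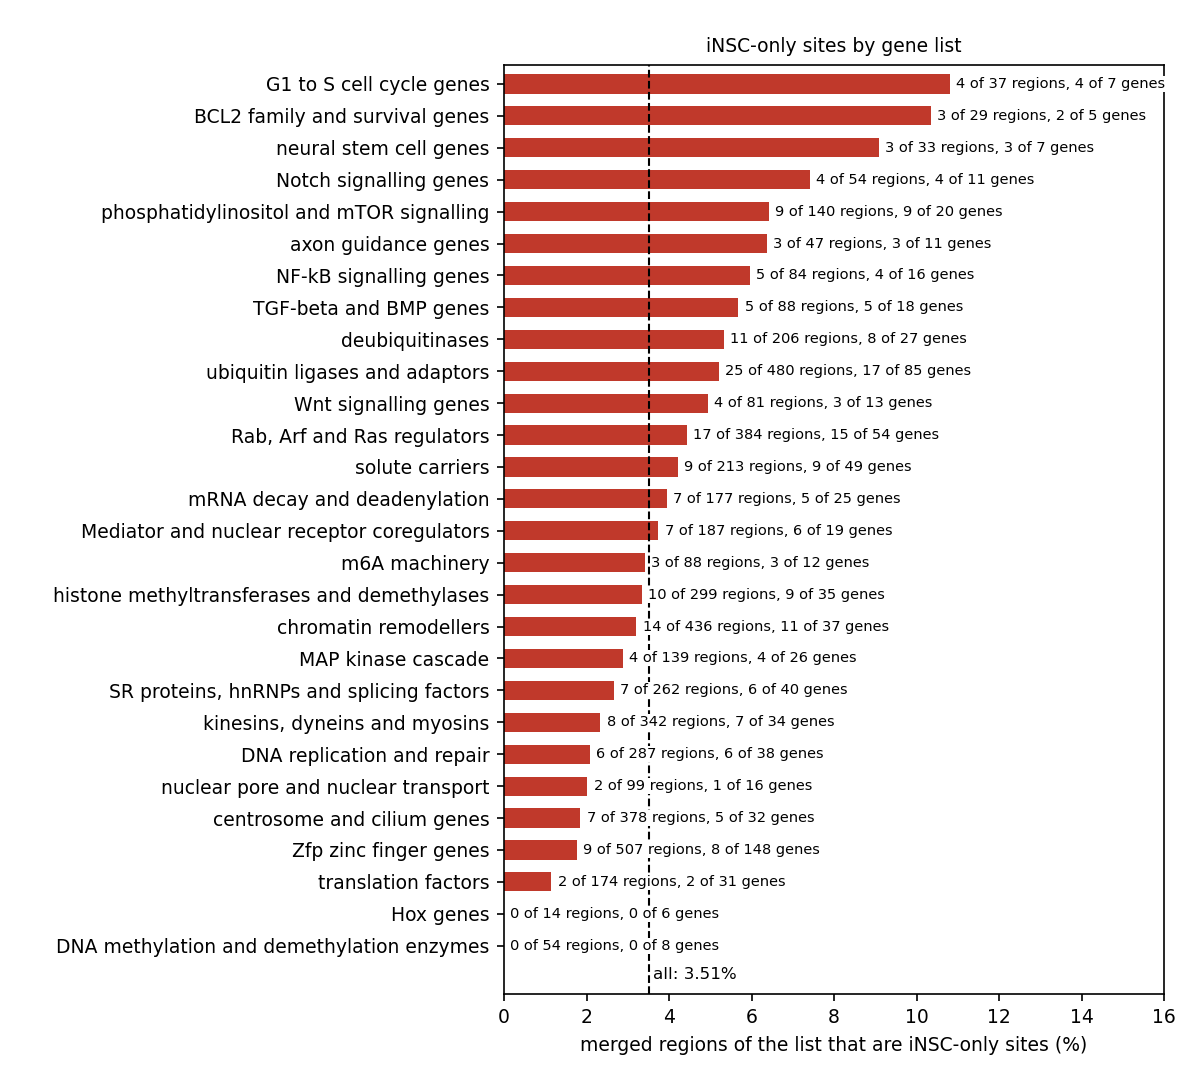
Share of merged regions (percent) that are iNSC-only sites in each gene list, for lists with at least 5 commonly methylated genes, 1 list left out; the counts of sites, regions and genes stand beside each bar, and the dashed line is the share over all commonly methylated genes, 3.51%. The G1 to S list is at 10.8% with 4 sites, ubiquitin ligases at 5.21% with 25 and Zfp zinc finger genes at 1.78% with 9.

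Only genes with a peak in every list could enter the set, so the rule left out neural genes marked in iNSCs alone. Among those that could enter, the neural stem cell and axon guidance lists had sites in a larger share of regions than the 3.51% of all regions. Each share rests on 3 sites, and the excess was not tested. Of 7 commonly methylated neural stem cell genes, 3 had a site, Zbtb18, Nr2f1 and Ncam1 (3 of 33 regions, 9.09%). Zbtb18, a transcriptional repressor in cortical development, had a site of 189 bases at the gene start with percentiles of 58.2, 40.9 and 61.9. Nr2f1, a nuclear receptor of cortical patterning, had a site of 528 bases with 44.4, 23.2 and 42.4. It had 1 peak in each SSC list and 3 in each iNSC list. Ncam1, the neural cell adhesion molecule, had a weak site of 132 bases with 28.2, 12.3 and 7.75. Of 11 axon guidance genes, 3 had a site (3 of 47 regions, 6.38%) and 0 an SSC-only site. Plxna1, a semaphorin receptor, had 1261 bases in each list with percentiles of 92.5, 76.7 and 91.9, Nrp2, its coreceptor, had 1383 bases, and the ligand Sema3c had 63 to 68 bases and percentiles from 7.60 to 31.3.

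The lists differed in length and in markers of other cells. The SSC lists held 19728 to 27597 peaks and the iNSC lists 13913 to 16060, and the files give no read depth. Reduced to 13913 peaks each, the lists gave 919 sites, of which 516 were among the 819 (63.0%). Of 7 germ cell markers, 5 to 6 had a peak in each SSC list and 0 to 1 in each iNSC list. Neural stem cell markers had 3 of 6 in each SSC list and 2 of 6 in each iNSC list, and Sox1 and Fabp7 had none in any list. Endothelial markers had 3 to 4 of 4 and epithelial markers 2 to 3 of 4 in the SSC lists, and 0 in the iNSC lists. Fibroblast markers, of interest for the feeder layer, had 2 to 6 of 6 and 2 to 3 of 6, and 1 of them, Pdgfra, held iNSC-only sites. The part of other cells in the sites was not tested.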

How the data were processed

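The data were 6 peak lists, 1 for each m6A immunoprecipitation library. Per the labels' protocols, poly(A) RNA was cut to fragments of about 200 nt, pulled down with an anti-m6A antibody, and sequenced from directional libraries, although the series title and type speak of DNA methylation. Tools and build in the submitters' processing notes are HISAT2 2.0.4, cutadapt 1.9.3 and mm9; the peak caller is not given in the sources used here. Each list holds 6 columns without header, and the authors deposited a score for every peak without stating its unit; it was used only as a percentile rank within 1 list, with scores of 3100 or more tied. Read depth is not in the lists. Gene edges of RefSeq GRCm38.p6 coincided with peak edges for 4.90% to 12.0% of peaks, against 0.00807% to 0.0187% after a shift of 10000 bases, so coordinates are read as GRCm38 and given 1-based.

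Of 118075 peaks, 112948 overlapped 1 protein-coding gene, 2161 over several genes were placed by strand, and 1651 ambiguous and 1315 intergenic peaks were left out. Gene direction came from the RefSeq promoter table (558 of the 693 genes), else from the peaks' strand; 23 sites were placed by strand. Shares of all peaks per library were compared with exact permutation tests (SciPy), adjusted by Benjamini-Hochberg over 6 tests; 4 of these compared kinds of site, whose p-values the selection fixes, and are not printed. On simulated lists, 200 of 200 planted sites of each kind were recovered. Planted peaks overlapped in every library of their group by design, so this checked the coding of the rule only. It does not bear on missed or split peaks. The members, the 31 gene lists and the tests were chosen with earlier results of these data known. Genes were named by rule: the 12 best-ranked sites, the 8 genes with the most sites, genes of the series title, up to 4 per gene list, the 4 widest and 4 narrowest, the 5 farthest from and the 5 nearest to an SSC peak, and the 5 best ranked at gene ends and at gene starts; a few of these genes and 1 list are not reported here, and not all others are printed. Other members of a list are named to complete its count. Alternatives were stricter or shorter lists, other overlaps, windows, widths and numbers of lists, a replicate block and leaving out each library.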

Additional observations from a re-analysis of the deposited data

How the results depend on the processing

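Applied to the better-scoring 50% of peaks per list, the rule gave 328 sites in 289 genes, with a median peak width of 733.5 bases, and 159 of the 819 sites were still called. At equal list length the median width was 372 bases, and 516 of the 819 were still called. With 2 of 3 lists required there were 1824 sites in 1436 genes with a median width of 337 bases; the first 500 bases then differed from SSC-only sites by 0.0381 points and the last 2000 bases from regions in all 6 lists by 0.106 points, both with a turned sign. Peaks of at least 100 bases gave a median width of 438 bases and 685 of the 819 sites. Against regions in all 6 lists, the last 10% of the span differed by 11.2 points and the last 1000 bases by 0.0203 points, windows added after the data were seen. Leaving out 1 library gave 966 to 1392 sites in 805 to 1099 genes with a median width of 296 to 502 bases. It moved the difference in the first 500 bases from -4.05 to 2.83 points against SSC-only sites and from -4.98 to 0.278 against regions in all 6 lists, and that in the last 2000 bases against the latter from -2.76 to 1.96. The difference of the last 2000 bases from SSC-only sites stayed positive in each setting run, at 8.72 to 23.9 points. With the replicate number as a replicate block it was 13.8 points and that of the first 500 bases -1.65 (no test, since the selection fixes it). Same-numbered libraries correlated at 0.00469, -0.00694 and 0.0475, within the range of -0.0588 to 0.0554 of the other pairs. Whether the replicate numbers pair the samples cannot be told from these values. The causes of these changes were not tested. With no read counts, a site missing from an SSC list cannot be given a detection limit.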
